A study of Mus musculus with 9 samples.

Results

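The transcripts described here are those of 10 genes that act on the passage of a cell through G1, the gap before DNA is copied. They were chosen by name, as every probe set that the annotation of the array gives to *Ccnd1*, *Ccnd2*, *Ccnd3*, *Cdk4*, *Cdk6*, *Cdkn1a*, *Cdkn1b*, *Cdkn2c*, *Rbl1* or *Btg2*. The rule itself uses gene names and no measured value, but the members and gene lists were chosen with earlier results of these data known. Shares of members or lists set beside those over all probe sets or genes thus do not come from a blind choice. This gave 30 of the 45037 probe sets tested and 10 of the 18193 genes named. Growth-promoting members (D-type cyclins and their kinases) held 19 probe sets of 5 genes, and arrest members (CDK inhibitors, a pocket protein and *Btg2*) held 11 probe sets of 5 genes. The question put to the data was whether the arrest members rose where genes of cell division fell.

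The MC3T3-E1 line consists of preosteoblasts of the mouse, the precursors of bone-forming cells, derived from skull bone. Low-intensity pulsed ultrasound (LIPUS) is a weak acoustic pressure wave that is applied to broken bones. Cells grown for 14 days were seeded again, kept for 24 h and exposed to LIPUS at 30 mW/cm2 and 1.5 MHz for 20 min. The arrays fell into 3 groups of 3, namely cells at 24 h after LIPUS, cells at 6 h after LIPUS, and mock-treated control cells, all of the same line. The medium of the first culture held ascorbic acid and β-glycerophosphate, supplements that promote osteoblast differentiation, in all groups alike. The time at which the control cells were harvested is not given in the sources used here, so LIPUS and time in culture cannot be told apart. The labels number the arrays 1 to 3 in each group, and the study's legends describe the arrays as coming from different experiments. That one number marks one experiment is not stated in the sources used here and was taken from the pairing of the values.

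D-type cyclins bind the kinases CDK4 and CDK6, and the pairs phosphorylate the pocket proteins Rb, p107 and p130, which otherwise hold back the E2F factors that switch on genes of DNA synthesis. Inhibitors of the Cip/Kip family act mainly on kinases paired with cyclins, and those of the INK4 family bind CDK4 and CDK6 themselves. In bone-forming cells, withdrawal from the cycle generally accompanies differentiation, and the D-type cyclins are among the genes that growth factors and matrix attachment act on.

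All values are log2 signals of the arrays, and a difference is a log2 ratio between the array of one group and the array of another with the same number, averaged over the 3 numbers, which are called experiments here. A probe set was called changed at an adjusted p under 0.05 in limma with the experiment as a block. The median signal of an array was 4.89 to 5.15. Of 8 measured osteoblast-lineage markers 7 were in the brighter part of the array. *Col1a1*, *Col1a2*, *Sparc* and *Postn* lay in the top percentile of signal, whereas *Ibsp* was dim. Over the arrays, *Dlx5* lay at percentiles 78.91 to 81.61, *Sp7* at 66.05 to 70.55 and *Alpl* at 44.17 to 55.32. Markers of keratinocytes moved at 24 h, with *Trp63* higher and *Krt14* and *Cdh1* lower among 5, and their summed linear signal was 899.8 to 1149 at 24 h, 1259 to 1545 at 6 h and 1242 to 1560 in control. Among 5 chondrocyte markers *Col2a1* was lower, and their summed signal was 1021 to 1505 at 24 h, 1468 to 2171 at 6 h and 1503 to 2038 in control. No measured osteoblast, adipocyte, macrophage, muscle or endothelial marker was called. The osteoblast markers *Runx2* and *Bglap* and the adipocyte marker *Plin1* were listed but not among the genes named, so they were not read. By real-time PCR, the study reports a higher *Bglap* mRNA level after LIPUS, which could not be checked here. It reports no change in *Spp1* mRNA, in alkaline phosphatase activity or in cell growth. The part of the markers that moved in the results was not tested.

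At 24 h after LIPUS, 9 of the 30 member probe sets were changed relative to control, 7 higher and 2 lower, where 2.73% of all probe sets were called, 1.80% higher and 0.933% lower. Of the 7 that were higher, 6 measured *Ccnd2* and 1 measured *Btg2*. The 2 that were lower measured *Rbl1* and *Cdkn1a*. Of the 30, 26 lay in the brighter 50% of the array, so shares over all probe sets are not matched to the members in signal. Fitted alone, the brighter 50% of the 45037 probe sets gave 1789 calls, 1191 higher and 598 lower, with the same 9 members. Probe sets of one gene read the same transcript and are not separate evidence, and without *Ccnd2* 3 of 23 were called. Taking each gene at its probe set of highest mean signal, *Ccnd2* and *Btg2* were higher and *Rbl1* was lower among the 10, where 4.14% of all genes were called, 2.57% higher and 1.57% lower. The changes were small, between 0.89-fold and 1.30-fold for the called probe sets, and no member reached 1.5-fold in all 3 experiments, as 0.0955% of all probe sets did upward and 0.0355% downward. The ratio was above 1 in all 3 experiments for 14 of the 30 member probe sets, where this was so for 10.3% of all. It was below 1 in all 3 for 3 of the 30, against 6.84% of all. Without *Ccnd2* the counts were 7 and 3 of 23. A probe set with equal values in 1 experiment falls outside both counts. In experiment 2 this held for 48.4% of all probe sets and 10 of the 30, so the shares are not matched. The signal of the experiments differed more than that of the groups, and the groups were without overlap for 0 of the 30, where 1.47% of all probe sets were. In RNA from whole cultures, a lower share of cells with a transcript and less transcript per cell cannot be told apart.

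**Figure D1:**
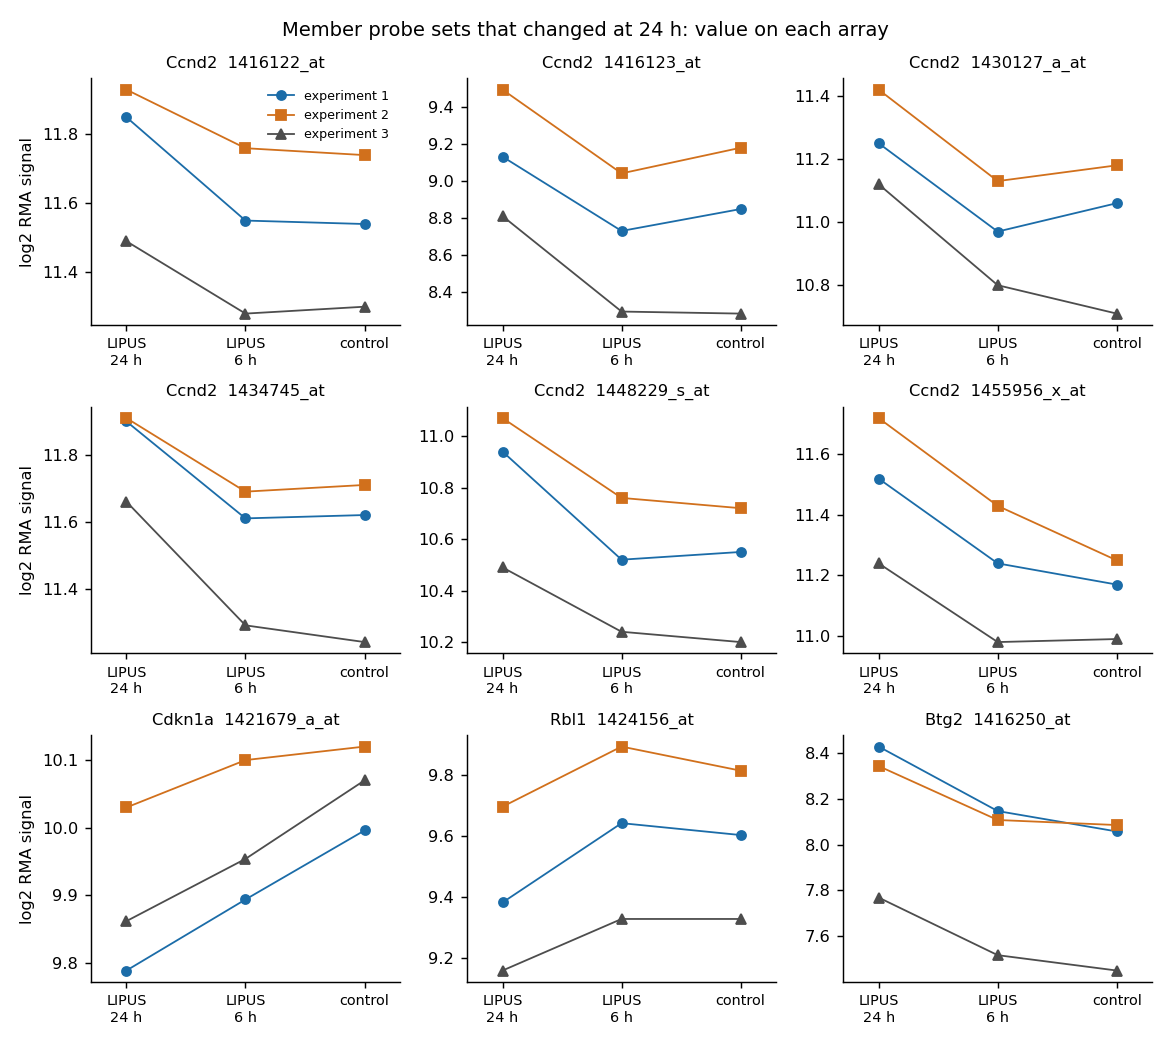
Log2 signal on each array for the called member probe sets, with 24 h after LIPUS at the left, 6 h in the middle and control at the right, and lines joining arrays of one experiment. Within each experiment *Ccnd2* and *Btg2* were highest at 24 h while *Rbl1* and *Cdkn1a* were lowest at 24 h.

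*Ccnd2* encodes cyclin D2, which activates CDK4 and CDK6 in response to growth signals. It has 7 probe sets on the array, and 6 of them were higher at 24 h than in control. At its probe set of highest mean, 1434745_at, the log2 signals of experiments 1, 2 and 3 were 11.90, 11.91 and 11.66 at 24 h, against 11.62, 11.71 and 11.24 in control. The lowest 24 h array lay below the highest control array, so the groups overlapped, but each 24 h array was above the control of its own experiment, by 0.28, 0.20 and 0.42. The mean was 11.82 ± 0.14 at 24 h and 11.52 ± 0.25 in control (SD, n = 3 each), a difference of 0.30 (SE 0.039, 1.23-fold, adjusted p = 0.0119).

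The smallest adjusted p among all members belonged to another *Ccnd2* probe set, 1448229_s_at, with 10.94, 11.07 and 10.49 at 24 h, against 10.55, 10.72 and 10.20 in control. Here too every 24 h array exceeded its own control, by 0.38, 0.35 and 0.29, although the control of experiment 2 was above the 24 h array of experiment 3. The difference was 0.34 (SE 0.032, 1.27-fold, adjusted p = 0.00384). In the array's naming, the suffix s marks a probe set that several transcripts share, and x one with probes that also match other sequences, so these readings can hold other transcripts.

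The other *Ccnd2* probe sets called differed by 0.23 (1416122_at), 0.37 (1416123_at), 0.28 (1430127_a_at) and 0.35 (1455956_x_at), with adjusted p-values of 0.00723 to 0.0196. The *Ccnd2* probe set that was not called, 1416124_at, had the lowest mean of the 7, with 7.81, 8.04 and 6.93 at 24 h, against 7.63, 8.02 and 6.35 in control. Its difference of 0.26 was near that of the others, but its ratios of 0.18, 0.02 and 0.58 were widely spread (95% interval 0.01 to 0.52, adjusted p = 0.384).

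None of the other growth-promoting members was called at 24 h. *Ccnd1*, cyclin D1, the most widely used D-type cyclin, had at 1417420_at 11.61, 11.73 and 11.27 at 24 h, against 11.52, 11.71 and 11.22 in control. The 24 h array was thus above its own control by at most 0.10, and the mean difference was 0.06 (95% interval 0.00 to 0.11, adjusted p = 0.364). Its 2 other probe sets gave -0.04 and 0.09, which differed in sign. *Ccnd3*, cyclin D3, differed by 0.02 (-0.05 to 0.10) at its brightest probe set. Both other *Ccnd3* probe sets gave values under 0.10 in size, and 1438805_at was in the dimmer part of the array.

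*Cdk4*, the kinase that the D-type cyclins bind, gave -0.0042 at 1422441_x_at (95% interval -0.08 to 0.07), -0.02 at 1422439_a_at and 0.0037 at 1422440_at. In experiment 2 all 3 *Cdk4* probe sets had exactly the same value at 24 h and in control. *Cdk6*, the second kinase of the pair, gave 0.13 at 1455287_at, with ratios of 0.10, 0.15 and 0.13 (95% interval 0.03 to 0.22, adjusted p = 0.229). The *Cdk6* ratio was above 0 in every experiment, and the difference did not pass the adjustment over all probe sets. Among the 19 growth-promoting probe sets, 6 were higher and 0 lower, and all 6 were of *Ccnd2*. Over all probe sets 1.80% were higher and 0.933% lower.

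The arrest members moved in both directions. Of their 11 probe sets, 1 was higher and 2 were lower at 24 h, where 1.80% of all probe sets were higher and 0.933% lower. *Btg2* encodes an antiproliferative protein of the BTG/TOB family that recruits the machinery removing poly(A) tails from mRNA, and it is known as an early response gene and as a target of p53. *Rbl1* encodes p107, a pocket protein that holds back E2F factors. *Cdkn1a* encodes p21, the Cip/Kip inhibitor that p53 induces.

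The promoters of these 3 arrest members, the ones called at 24 h, are shown because each holds the letters of a different regulatory element. Whether these letters bear on the direction of change was not tested. Each run is the 250 bases before an annotated start in RefSeq, on GRCm38.p6 and 5′ to 3′ on the strand of the gene, with the element found in capitals. *Btg2* (chr1:134079156-134079405, minus strand) has the cyclic AMP response element TGACGTCA, beginning 166 bases before the start. *Rbl1* (chr2:157204535-157204784, minus strand) has the E2F element TTTCGCGC, beginning 18 bases before it. *Cdkn1a* (chr17:29090729-29090978, plus strand, the first of 2 starts listed) has p53 half-sites beginning 73 and 51 bases before it.
Btg2: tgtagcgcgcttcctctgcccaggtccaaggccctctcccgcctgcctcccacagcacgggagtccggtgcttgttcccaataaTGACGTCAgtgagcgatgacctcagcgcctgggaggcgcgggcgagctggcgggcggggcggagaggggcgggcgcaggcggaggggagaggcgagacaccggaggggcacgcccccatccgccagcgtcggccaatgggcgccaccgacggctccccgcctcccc
Rbl1: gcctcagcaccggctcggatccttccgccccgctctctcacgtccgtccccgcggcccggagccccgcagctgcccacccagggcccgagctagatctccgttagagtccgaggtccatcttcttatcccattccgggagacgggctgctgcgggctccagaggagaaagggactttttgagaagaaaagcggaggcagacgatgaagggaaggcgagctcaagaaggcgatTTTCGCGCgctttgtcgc
Cdkn1a: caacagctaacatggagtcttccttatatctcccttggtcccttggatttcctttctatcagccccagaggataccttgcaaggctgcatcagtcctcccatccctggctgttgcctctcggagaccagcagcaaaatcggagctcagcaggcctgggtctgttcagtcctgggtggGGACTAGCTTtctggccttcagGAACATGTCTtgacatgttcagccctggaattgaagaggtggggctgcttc
The table of promoters held 11 starts for 8 of the 10 members, and *Ccnd1* and *Ccnd2* were not matched. On either strand, the cyclic AMP response element was in 1 of these 11 windows and in 1.55% of the 32851 promoters of the table. An E2F element (TTTGGCGC, TTTCGCGC, TTTCCCGC or TTTGCCGC) was in 1 of 11 and in 1.86%, and a p53 half-site was in 1 of 11 and in 7.13%. The CHR letters TTTGAA, found in 16.0% of all promoters, and the AP-1 letters TGANTCA, found in 6.75%, were in 0 of the 11. None of the matches printed overlapped another, and a match is a description of the letters and not a measured site.

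*Btg2* at 1416250_at had 8.43, 8.34 and 7.77 at 24 h, against 8.06, 8.09 and 7.45 in control. Each 24 h array was above its own control, by 0.37, 0.26 and 0.32, while the arrays of experiment 3 were low in both groups and made them overlap. The mean was 8.18 ± 0.36 at 24 h and 7.86 ± 0.36 in control (SD, n = 3 each), a difference of 0.31 (SE 0.034, 1.24-fold, adjusted p = 0.00594). The other *Btg2* probe set, 1448272_at, gave ratios of 0.06, 0.11 and 0.07, which were above 0 in each experiment and not called (mean 0.08, 95% interval -0.03 to 0.20).

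*Rbl1* at 1424156_at had 9.38, 9.70 and 9.16 at 24 h, against 9.60, 9.81 and 9.33 in control. Every 24 h array was below the control of its experiment, by 0.22, 0.12 and 0.17 on the log2 scale, although the groups overlapped. The difference was -0.17 (SE 0.030, 0.889-fold, adjusted p = 0.0375). The other 3 *Rbl1* probe sets were weaker in signal, 2 of them in the dimmer part of the array, and gave 0.14, -0.03 and 0.09, none of them called.

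*Cdkn1a* at 1421679_a_at had 9.79, 10.03 and 9.86 at 24 h, against 10.00, 10.12 and 10.07 in control. The 24 h array was below its own control in each experiment, and the highest 24 h array was above the lowest control array. The difference was -0.17 (SE 0.032, 0.890-fold, adjusted p = 0.0460). Its brighter probe set, 1424638_at, had 10.85, 11.10 and 10.54 at 24 h, against 10.93, 11.13 and 10.73 in control, and its difference of -0.10 was not called (95% interval -0.18 to -0.02, adjusted p = 0.272). The call for *Cdkn1a* thus rested on 1 of its 2 probe sets, with the same sign at the other.

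The calls of *Rbl1* and *Cdkn1a* lay close to the threshold. Each was lost in all 9 fits that left out 1 array, while *Btg2* and at least 1 probe set of *Ccnd2* were called in 8 of those 9, the exception being the fit without the control array of experiment 1. Without experiment 1 or without experiment 2, 0 of the 30 member probe sets were called, and 7 were called without experiment 3. In a fit that ignored the experiment numbers 0 were called, and in one centred on array medians 7 were called, with *Rbl1* and *Cdkn1a* lost.

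*Cdkn1b* encodes p27, a Cip/Kip inhibitor that is regulated largely through the stability of the protein, and *Cdkn2c* encodes p18, an INK4 inhibitor. Neither was called at 24 h. *Cdkn1b* gave 0.08 at 1434045_at (95% interval -0.04 to 0.20), and 0.10 at 1419497_at with ratios of -0.09, 0.00 and 0.40. *Cdkn2c* gave ratios of 0.15, 0.03 and -0.03, which differed in sign, with a mean of 0.05 (-0.03 to 0.13).

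**Figure D2:**
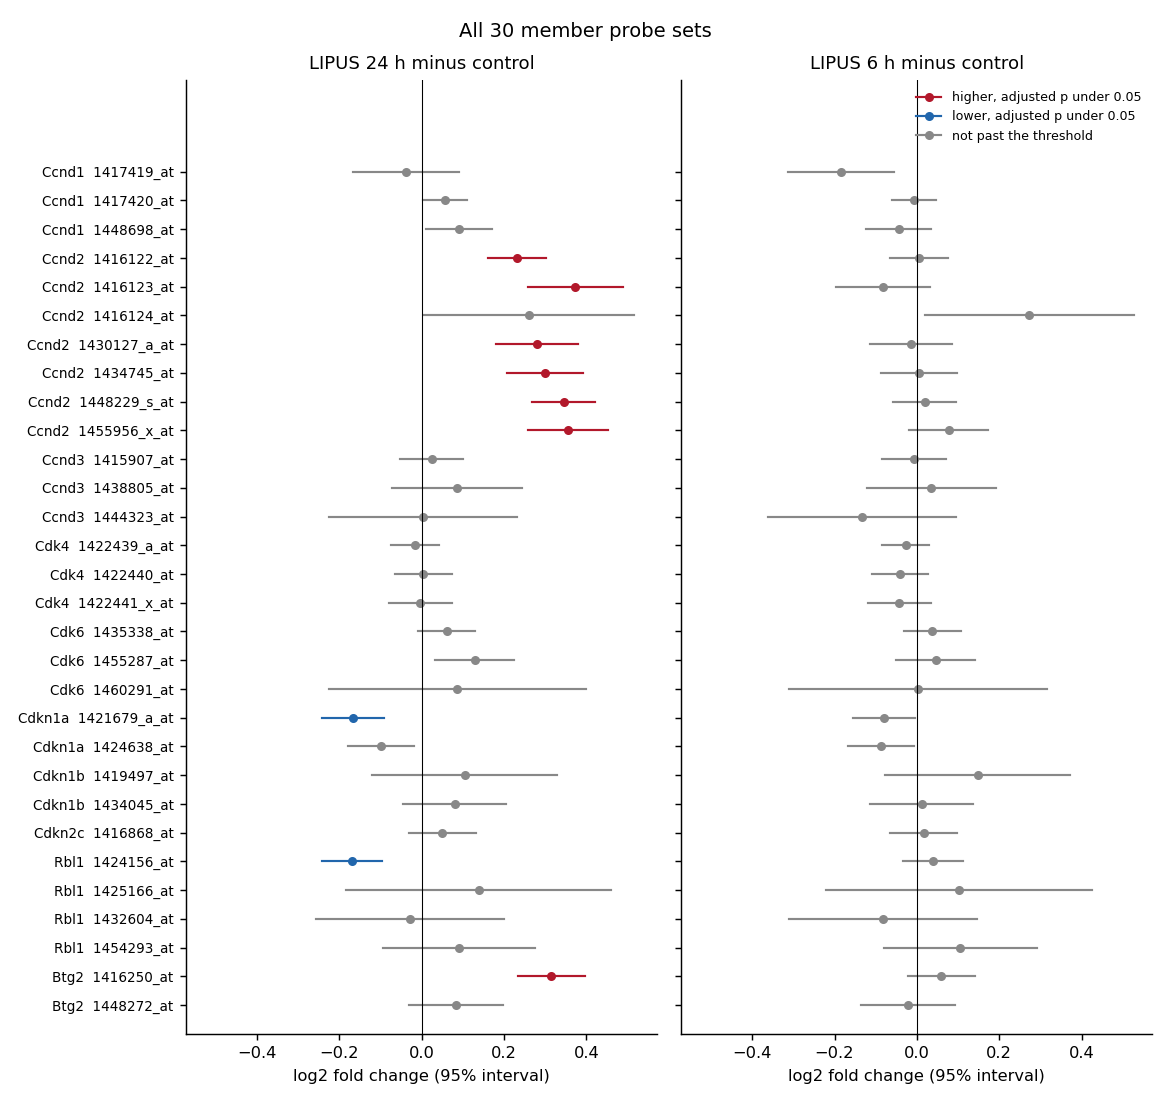
Log2 difference of each of the 30 member probe sets, for 24 h against control and for 6 h against control, with 95% intervals from limma, in red where higher and blue where lower at an adjusted p under 0.05 and in grey otherwise. The called probe sets are the 6 of *Ccnd2* and 1 each of *Btg2*, *Rbl1* and *Cdkn1a* at 24 h, and all points at 6 h are grey.

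At 6 h after LIPUS, 0 of the 30 member probe sets were called, where 0.00% of all probe sets were called in limma and the smallest adjusted p was 0.959. At an unadjusted p under 0.05 there were 4 of 30 members and 1575 of the 45037 probe sets in limma. The methods' t-test, run here unpaired, gave 0 members and 53 probe sets at that level. The 4 members in limma were both probe sets of *Cdkn1a*, 1 of *Ccnd1* and 1 of *Ccnd2*. *Cdkn1a* at 1424638_at had 10.82, 11.10 and 10.61 at 6 h, against 10.93, 11.13 and 10.73 in control, a difference of -0.09 (95% interval -0.17 to -0.01). *Ccnd1* at 1417419_at had 10.06, 10.41 and 9.77 at 6 h, against 10.41, 10.58 and 9.80 in control. All 3 ratios were below 0, at -0.35, -0.18 and -0.03, and the mean of -0.18 had a 95% interval of -0.31 to -0.06. *Btg2* differed by 0.06 at 6 h at 1416250_at, with ratios of 0.09, 0.02 and 0.07, and *Ccnd2* at 1434745_at by 0.01.

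The 24 h and 6 h groups were also compared directly. The control cancels from this difference, but its arrays still enter the estimate of the spread and so the calls. Of the 30 member probe sets 8 were called, 7 higher and 1 lower at 24 h, where 2.02% of all probe sets were called, 1.14% higher and 0.879% lower. Of the 7 that were higher, 6 measured *Ccnd2*, and without *Ccnd2* 2 of 23 were called. At the probe set of highest mean, 3 of the 10 members were called, where 3.24% of all genes were. Without the control array of experiment 1, 3 members were called, and with the 24 h and 6 h arrays alone 0 were called. *Ccnd2* at 1434745_at was 11.90, 11.91 and 11.66 at 24 h, against 11.61, 11.69 and 11.29 at 6 h, a difference of 0.29 (adjusted p = 0.0151). *Btg2* at 1416250_at was 8.43, 8.34 and 7.77 at 24 h, against 8.15, 8.11 and 7.52 at 6 h, a difference of 0.26 (adjusted p = 0.0151). Both genes were higher at 24 h in each experiment.

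*Rbl1* at 1424156_at was lower at 24 h than at 6 h, with 9.38, 9.70 and 9.16 at 24 h, against 9.64, 9.89 and 9.33 at 6 h, a difference of -0.21 (adjusted p = 0.0210). The difference for *Ccnd2* was widest at 1416123_at, at 0.46 (1.37-fold, adjusted p = 0.00686). *Cdkn1a* at 1421679_a_at differed by -0.09 between 24 h and 6 h and was not called (adjusted p = 0.365). Its 6 h arrays lay between the 24 h and control arrays of the same number in all 3 experiments, at 9.89, 10.10 and 9.95.

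**Figure D3:**
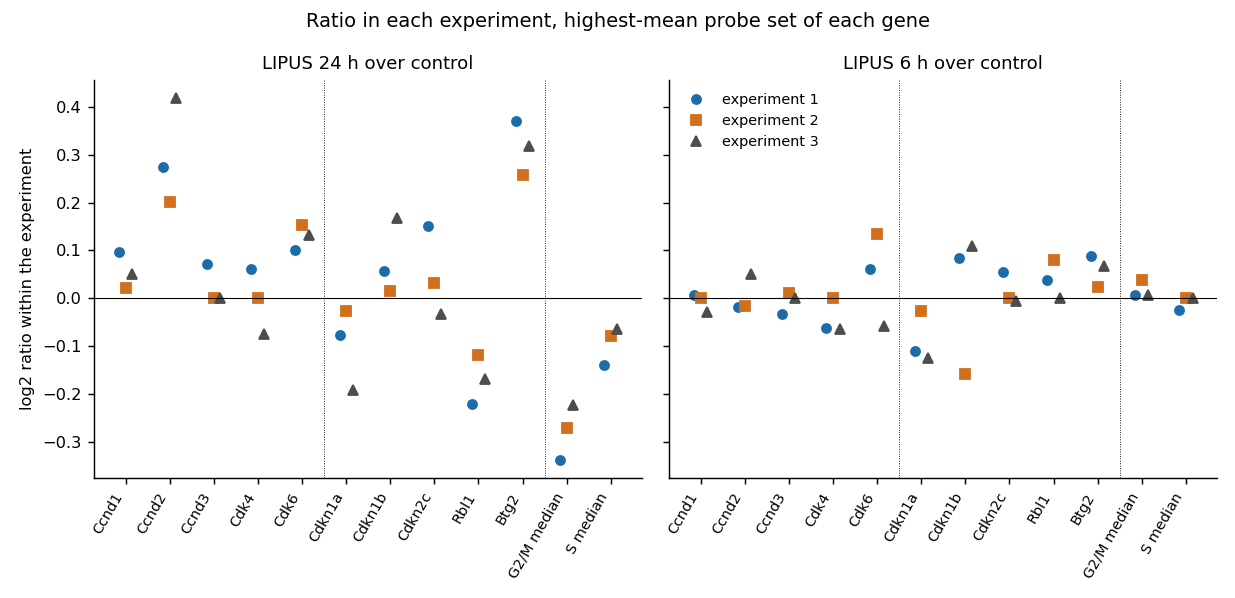
Log2 ratios of each experiment for the 10 members at the probe set of highest mean, at 24 h against control and at 6 h against control, with the medians of the G2 and M phase and S phase genes at the right of each panel. At 24 h 5 members (*Ccnd1*, *Ccnd2*, *Cdk6*, *Cdkn1b* and *Btg2*) lie above 0 in all 3 experiments and 2 (*Rbl1* and *Cdkn1a*) below 0, and no member was called at 6 h.

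Transcripts of division genes fell at 24 h in the same arrays. Division itself is not measured by arrays, and by cell counts the study reports growth after LIPUS comparable to that of mock-treated cells. Of 39 measured genes of G2 and M phase, the stages of preparing and carrying out division, 27 were lower and 0 higher, and their median was -0.27, against 0.0014 over all genes. All 39 were below 0, and the medians by experiment were -0.34, -0.27 and -0.22. Over all genes 1.57% were lower and 2.57% higher, and the list was not chosen blind to earlier results of these data. *Cenpf*, a kinetochore protein, differed by -0.48, *Hmmr*, a spindle protein, by -0.43, *Cdca8*, of the chromosomal passenger complex, by -0.40, and *Ccnb2*, a mitotic cyclin, by -0.40. Of 38 genes of S phase, in which DNA is copied, 4 were lower and 0 higher, with a median of -0.11. These were *Tk1* (-0.28), which makes thymidine phosphate, *Lig1* (-0.23), which joins DNA ends, *Prim1* (-0.19), a primase subunit, and *Pcna* (-0.13), the sliding clamp.

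Set beside these, the 5 arrest members at their probe sets of highest mean had a median of 0.05, with 1 higher (*Btg2*), 1 lower (*Rbl1*) and 3 not called, and medians by experiment of 0.06, 0.01 and -0.03. The dimmer *Cdkn1a* probe set was also lower, and the dimmer *Btg2* probe set was not called. Each of the *Rbl1* and *Cdkn1a* calls was lost in all 9 fits that left out 1 array. The 5 growth-promoting members had a median of 0.06, with 1 higher (*Ccnd2*), 0 lower and 4 not called. Over all genes 2.57% were higher and 1.57% lower. At the time when the division genes fell, the count of genes that rose was thus 1 of 5 in either list. At 6 h no gene of either list was called, and the median of the G2 and M phase genes was 0.02.

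Other genes of the same pathway were counted from lists chosen for their function. For each such list, the shares over all genes at 24 h were 2.57% higher and 1.57% lower. Of 12 other cyclins, kinases and activators of the step into S phase, 2 were higher and 0 lower at 24 h, with a median of 0.0009. *Myc*, a growth-promoting transcription factor, was 9.16, 9.65 and 9.22 at 24 h, against 8.63, 9.002 and 8.59 in control. Its 24 h arrays all lay above the control arrays, and the difference was 0.60 (SE 0.036, adjusted p = 7.315e-04). *Cdk7*, a subunit of the kinase that activates other CDKs, differed by 0.19 (adjusted p = 0.0336).

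Of 4 other CDK inhibitors, *Cdkn2d*, the INK4 inhibitor p19, differed by -0.32 and was lower (adjusted p = 0.0125), while *Cdkn1c*, *Cdkn2a* and *Cdkn2b* were not called, at -0.10, 0.13 and 0.06. Among 18 other genes of pocket proteins, E2F factors and the DREAM complex, a repressor of division genes, *E2f7* differed by -0.43 and was lower (adjusted p = 0.0101), and none was higher. *E2f7* encodes an atypical E2F that represses transcription. *Rb1*, the retinoblastoma pocket protein, gave 0.07 and *Rbl2*, which encodes p130, gave -0.05, and neither was called, with adjusted p-values of 0.715 and 0.708.

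None of 3 other measured BTG/TOB genes was called, and *Tob1* gave -0.16 and *Btg1* 0.06. Of 21 target genes of p53, 1 was higher and 1 lower, with a median of 0.0029. *Plk2*, a polo-like kinase, was higher by 0.22 (adjusted p = 0.0189), and *Phlda3*, an inhibitor of AKT, differed by -0.21 and was lower (adjusted p = 0.0387). None of 8 reference genes was called, and the widest was *Tbp*, at 0.10.

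**Figure D4:**
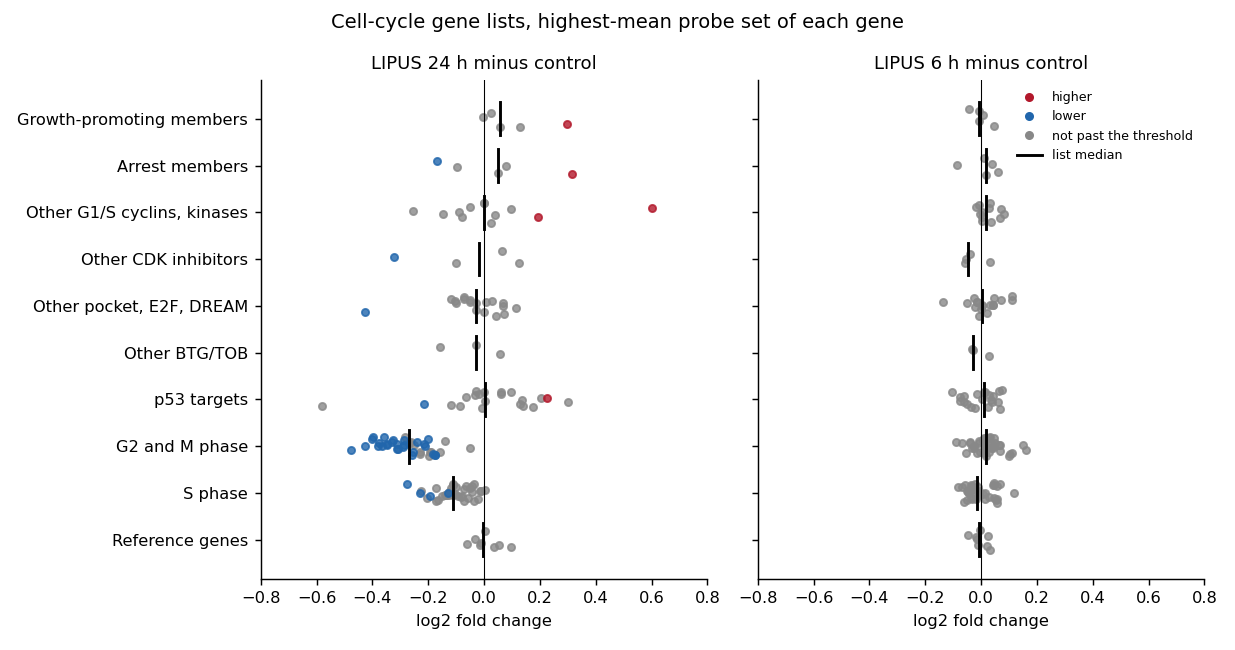
Log2 difference at 24 h against control and at 6 h against control for every measured gene of each list at its probe set of highest mean, with the list median as a black bar and called genes in red where higher and blue where lower. At 24 h the G2 and M phase genes all lie below 0 around a median of -0.27, and the medians of both member lists lie at 0.05 and 0.06.

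The genes whose pattern over the 9 arrays was most like that of the called members, after the mean of each experiment was removed, were sought among 20048 probe sets in the brighter part of the array. These values describe 9 arrays that share 3 experiments and 3 groups. For *Ccnd2* at 1448229_s_at they were *Mmp2*, a gelatinase (r = 0.998), *Ghr*, the growth hormone receptor (r = 0.997), and *Apol6* (r = 0.997). For *Btg2* they were *Crebzf*, a leucine zipper protein, *Ddx39b*, an RNA helicase, and *Mylk*, myosin light chain kinase (r = 0.995 for *Mylk*). For *Rbl1* they were *Sntb1*, a syntrophin (r = 0.997), *Cyb561a3* (r = 0.997) and *Serpinb6a*, a serine protease inhibitor (r = 0.995).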

How the data were processed

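Total RNA (500 ng a sample) of MC3T3-E1 cells was hybridized to Affymetrix Mouse Genome 430 2.0 arrays. The log2 values used here were deposited by the authors, who made them with RMA according to the labels. The version and settings of RMA and the genome build are not given in the sources used here. The scale of the table reads as log2, its genes are not centred, and the sources used here do not say whether the arrays were normalized together. The upper quartiles of the arrays split by experiment. They were 7.64 to 7.66 in experiment 1, 7.87 to 7.89 in experiment 2 and 7.40 to 7.50 in experiment 3. Whether arrays were processed apart by number was not tested. Array medians in experiments 1, 2 and 3 were 4.93, 5.15 and 4.97 at 24 h, 4.90, 5.15 and 4.98 at 6 h, and 4.89, 5.15 and 5.01 in control. Depth has no meaning for arrays, and the number of arrays, 3 a group, limits the precision.

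Of 45101 probe sets, 64 controls were left out. Of the rest, 34945 had 1 symbol in the annotation, 932 had several and 9160 had none, and those with several or none were tested but not named. The log2 values were fitted with limma 3.58.1 in R 4.3.3 (lmFit, eBayes with a trend), on all 9 arrays with the replicate number as a block, leaving 4 residual and 3 prior degrees of freedom. Adjustment of p-values was by Benjamini-Hochberg over 45037 probe sets, with a threshold of 0.05. The replicate numbers were taken to pair the samples from the values. Deviations of same-numbered arrays from their group means correlated at 0.701 to 0.933, and those of differently numbered arrays at -0.674 to 0.0092. Deviations within a group of 3 sum to 0, which by itself lowers the latter. In uncentred values, 9 of 9 arrays correlated best with their own number. Whether shared culture or shared processing made them alike was not tested. Intervals are 95% from the moderated test. Genes were read at the probe set of the highest mean over the 9 arrays.

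The members and gene lists were chosen with earlier results of these data known. Named genes were all members, up to 4 called genes of each other list by size of difference (up to 2 by value where none was called), and for each of up to 3 called members the 3 genes of highest correlation. *Rb1*, *Rbl2*, *Cdkn1c*, *Cdkn2a*, *Cdkn2b* and the cell type markers fall outside that rule, and were named after their values were seen. Promoters came from RefSeq. On simulated data for 24 h against control (45037 probe sets), 13, 40, 49 and 50 of 50 were recovered at 1.2-fold, 1.5-fold, 2-fold and 3-fold. In that simulation 8 unchanged ones were called, and most changes of 1.2-fold were missed. The changed probe sets were drawn from the brighter part of the array, with normal noise that does not copy the equal values of the data. The shares recovered need not hold for the deposited values. Alternatives covered the block, the trend, robust fitting, filtering, normalization, the arrays fitted, the methods' t-test, the 1.5-fold rule, and arrays or experiments left out.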

Additional observations from a re-analysis of the deposited data

Results flagged for a closer look

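Screened here were the members and the other genes named by their size of difference at 24 h against control. Of these, the following passed the threshold in limma for the difference between the effects at 24 h and at 6 h, tested as 24 h minus 6 h. The list is not complete for the gene lists. Of the 39 measured G2 and M phase genes, 28 were lower at 24 h than at 6 h, where 1.49% of all genes were. Groups of 3 arrays were not screened for single arrays that stand apart. On the log2 scale *Ccnd2* differed by 0.2277 at 1416122_at, 0.455 at 1416123_at, 0.2942 at 1430127_a_at, 0.2926 at 1434745_at, 0.3248 at 1448229_s_at and 0.2778 at 1455956_x_at. *Btg2* differed by 0.2555 and *Rbl1* by -0.2086. Among the other cell cycle genes, *Myc* differed by 0.5305 and *Plk2* by 0.1962, both higher at 24 h. The rest were lower at 24 h than at 6 h. *Cdkn2d* differed by -0.2711 and *E2f7* by -0.4265, the G2 and M phase genes *Cenpf* by -0.5868, *Hmmr* by -0.4614, *Cdca8* by -0.4196 and *Ccnb2* by -0.3431, and the S phase genes *Tk1* by -0.2071, *Lig1* by -0.1686 and *Prim1* by -0.2519.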

How the results depend on the processing

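The main counts were 9 member probe sets of 1229 called at 24 h against control, 0 of 0 at 6 h against control, and 8 of 909 at 24 h against 6 h, and in each pair of values below the members come first. Without the replicate block 0 of 1, 0 of 0 and 0 of 0 were called. The block was kept because same-numbered arrays were alike, although no source used here states the pairing. The fit without it leaves the gap between experiments in the spread. Without the variance trend there were 4 of 522 at 24 h against control and 2 of 354 at 24 h against 6 h. With the arrays of the compared groups alone, which leaves fewer arrays to estimate the spread, there were 0 of 5 and 0 of 8. The methods' t-test was run here unpaired on the log2 values, so it too leaves the gap between experiments in the spread. Whether the study's own t-test was paired is not stated in the sources used here. The unpaired test gave 0 of 0 in both after Benjamini-Hochberg adjustment. At an unadjusted p under 0.05 it gave 0 of 351 and 0 of 299, with 0 of 53 at 6 h against control. The rule of 1.5-fold in all experiments gave 0 of 59 and 0 of 52, and 1 probe set per gene gave 3 members in each, by the fewer probe sets tested. Quantile normalization gave 746 higher and 576 lower at 24 h against control, where the deposited values gave 809 and 420, with all 9 members called.

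With 1 array or 1 experiment left out, the counts ranged from 0 to 7 members and from 0 to 1439 probe sets at 24 h against control, from 0 to 0 members and 0 to 38 probe sets at 6 h, and from 0 to 8 members and 0 to 1498 probe sets at 24 h against 6 h. The members called at 24 h against control were 0 without replicate 1, without replicate 2 or without the control array of replicate 1. They were 2 without the 6 h array of replicate 1, 3 without the 24 h array of replicate 1, and 4 without the control or the 24 h array of replicate 2, and 7 otherwise. The cause was not tested. The median of the members ranged from 0.0181 to 0.0662 at 24 h against control and from 0.0238 to 0.0583 at 24 h against 6 h, and that of the G2 and M phase genes from -0.3032 to -0.2344. The 9 called members kept their sign in every fit that tested them. Over all settings, 178 of 1818 values of members lost a call and 0 turned a called direction, while for the other named genes 244 of 756 lost a call, 4 gained one and 0 turned. The 3 arrays a group and the harvest time of the control, which is not given, limit every result.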

Other observations

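Many probe sets held exactly the same value at 24 h and in control within an experiment. This was so for 0, 10 and 4 of the 30 member probe sets in experiments 1, 2 and 3, and for 1.26%, 48.4% and 31.9% of all probe sets. The growth-promoting members *Cdk4* and *Ccnd3* held equal values in experiment 2 at every probe set, whereas none of the 9 called probe sets held an equal pair. The part of these equal values in the spread of each experiment was not tested.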
